A study of Saccharomyces cerevisiae with 18 samples.

Results

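Among the genes of budding yeast (Saccharomyces cerevisiae) that carry an intron are 8 that encode parts of the machinery for attaching ubiquitin and related small proteins to other proteins: UBC4, UBC5, UBC8, UBC9, UBC12, UBC13, RUB1 and DCN1. They were taken by name from the gene and intron tables of both strains of the study, and all 8 were found, among 6596 listed genes and 284 listed intron hosts. The rule does not use their values, but the 8 genes were chosen with earlier results of these data known. The submitters mark all 8 as holding an intron, and the R64 annotation gives each 1 intron. UBC9 conjugates SUMO, not ubiquitin or Rub1. All 8 passed the filters on low reads in both strains.

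Poly(A) RNA was sequenced from a Dib1 strain and a Snu114 strain, each with 1 spliceosome gene under the GAL1 promoter, which is on in galactose and off in glucose. The Dib1 strain has DIB1 (YPR082C) there, for a small tri-snRNP protein, and the Snu114 strain has SNU114 (YKL173w), for a GTPase of the U5 snRNP. Both strains are labelled as BY4742 of mating type alpha with his3Δ1, leu2Δ0, met15Δ0 and ura3Δ0, with LYS2 in the Dib1 strain and lys2Δ0 in the Snu114 strain. Each strain gave 3 libraries after 6 h in galactose medium (YPGal), 3 after 4 h in glucose medium (YPD) and 3 after 8 h in glucose medium, 18 libraries in all. Every glucose group thus differs from its galactose group in the driven gene, in sugar and in hours, and these cannot be told apart in such a comparison. A group in glucose is set against galactose unless it says otherwise.

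Ubiquitin is passed from an activating enzyme (E1) to a conjugating enzyme (E2) and from there, with a ligase (E3), to a lysine of the target protein. Ubc4 and Ubc5 are near-identical E2s that mark abnormal and short-lived proteins for the proteasome, Ubc8 works with the GID ligase in the breakdown of gluconeogenic enzymes when glucose returns, and Ubc13 pairs with the E2 variant Mms2 to build a chain type used in the tolerance of DNA damage. Rub1, the yeast counterpart of NEDD8, has its own E2, Ubc12, and Dcn1 helps to load Rub1 onto the cullin Cdc53, while Ubc9 is the sole E2 for SUMO. An unspliced intron interrupts the reading frame of such mRNAs or changes their protein, and intron reads in poly(A) RNA come from transcripts that still hold the intron or from pieces of them.

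The introns of 6 of the genes are printed below because they carry the values that follow, from the gene with the highest intron reads as a percent of its gene reads (RUB1) to those with deviating splice sites (UBC9, UBC12) or branch site (UBC8) and the paralog pair (UBC4, UBC5). They are read 5′ to 3′ on the coding strand from the R64 genome of RefSeq, and capitals mark the first 6 bases, the branch-site motif TACTAAC where it is present, and the last 3 bases.
RUB1: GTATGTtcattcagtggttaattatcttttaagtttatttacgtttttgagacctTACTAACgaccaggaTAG
UBC12: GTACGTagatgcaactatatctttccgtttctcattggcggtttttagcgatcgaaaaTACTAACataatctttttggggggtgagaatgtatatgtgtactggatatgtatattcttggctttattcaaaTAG
UBC9: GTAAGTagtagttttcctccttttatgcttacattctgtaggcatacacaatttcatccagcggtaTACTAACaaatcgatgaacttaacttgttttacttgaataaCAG
UBC8: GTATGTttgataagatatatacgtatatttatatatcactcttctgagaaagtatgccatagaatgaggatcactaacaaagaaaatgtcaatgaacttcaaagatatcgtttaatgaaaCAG
UBC4: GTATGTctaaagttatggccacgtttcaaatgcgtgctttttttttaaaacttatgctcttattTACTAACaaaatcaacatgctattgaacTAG
UBC5: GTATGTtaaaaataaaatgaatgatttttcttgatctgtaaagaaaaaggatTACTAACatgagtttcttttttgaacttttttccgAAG

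In R64 the RUB1 intron lies at chromosome IV, 733703 to 733775 on the minus strand, the UBC12 intron at chromosome XII, 744154 to 744287 on the plus strand, and the UBC9 intron at chromosome IV, 337525 to 337634 on the plus strand. The UBC8 intron lies at chromosome V, 131777 to 131899 on the plus strand, and the introns of the paralogs UBC4 and UBC5 at chromosome II, 407028 to 407122 and at chromosome IV, 569634 to 569723, both on the minus strand. The UBC13 intron (chromosome IV, 629906 to 630173, plus strand) and the DCN1 intron (chromosome XII, 398533 to 398626, plus strand) complete the set. No other annotated gene overlaps any of the 8 genes. All 8 introns lie between coding exons.

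Introns of this set run from 73 bases (RUB1) to 268 bases (UBC13), against a median of 140 for the 280 introns annotated in 270 of the listed hosts. Of the 8 introns, 6 start with GTATGT, the form of 73.2% of the 280. UBC9 starts with GTAAGT (4.64% of introns) and UBC12 with GTACGT (9.29%). The motif TACTAAC, searched on the sense strand, is in 7 of the 8 and in 82.5% of the 280. UBC8 lacks these letters but holds a NACTAAC at base 72 of its intron, a looser form found in 93.6% of the 280. RUB1 has 12 bases between the A of its branch site and the end of the intron, against a median of 34, and 8 of the 231 introns with the motif have so few or fewer. At the 3′ end 5 of the 8 introns close with TAG, 2 with CAG and UBC5 with AAG, an ending of 4.64% of introns. The first exon of UBC12 and of DCN1 is 3 bases, the start codon alone, and that of UBC8 is 5 bases. The map of exons and introns shows these positions to scale.

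**Figure D1:**
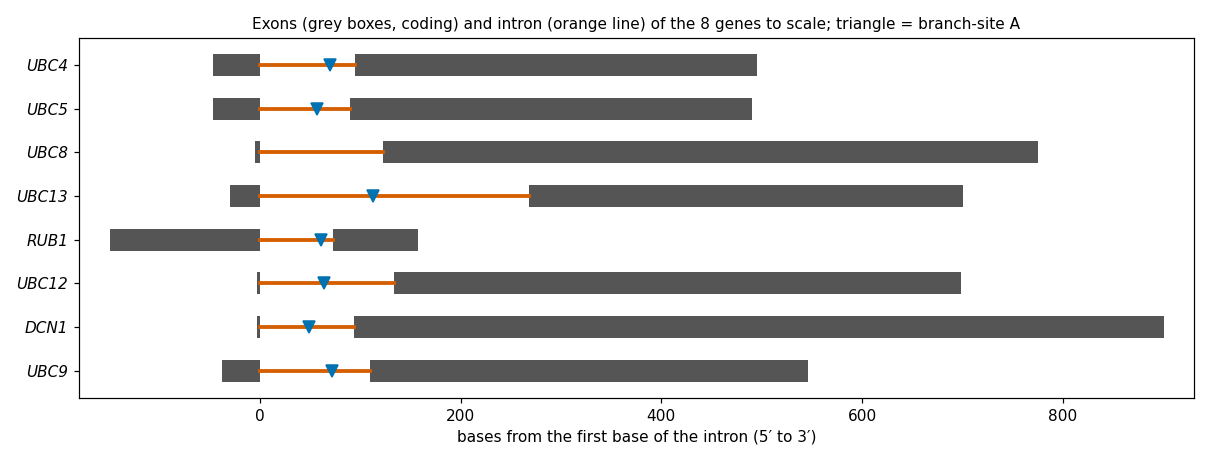
Exons (grey) and intron (orange) of the 8 genes drawn to scale, in bases from the first base of the intron, with the branch-site A as a triangle where TACTAAC is present. The introns sit near the start of the gene except in RUB1, whose first exon of 149 bases is longer than its second of 85 bases, and UBC8 has no triangle.

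Depth was 17065989 to 58615022 gene reads and 96655 to 1536697 intron reads per library. For the 8 genes it ranged from 164 to 41788 gene reads and from 1 to 8829 intron reads in a library. The driven genes followed the labels. DIB1 had 117804 to 127214 normalised counts in galactose in the Dib1 strain and 244 to 283 in glucose, and SNU114 had 159504 to 186566 and 1130 to 1501 in the Snu114 strain. In the other strain, where the gene is not driven, DIB1 had 971 to 1470 and SNU114 2429 to 3546 over all groups. The 2 strains were normalised separately. In galactose each driven gene thus stood far above its level in the other strain, and in glucose below it. Set against all gene reads, all intron reads of a Dib1 library came to 0.517% to 0.543% (galactose), 1.60% to 1.97% (4 h) and 2.53% to 2.62% (8 h). This share was 0.543% to 0.645%, 0.51% to 0.554% and 1.36% to 1.65% in the same order of Snu114 groups. The Dib1 libraries went against their label of mating type alpha, with 12594 to 22609 normalised counts of STE2, the alpha-factor receptor gene of a cells, against 106 to 190 in the Snu114 libraries. Strain differences cannot be told apart from effects of mating type or LYS2. The labels do not say whether the 3 libraries of a group came from separate cultures, so p-values may measure technical spread alone.

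The main measure is the ratio of intron reads to gene reads of the same gene in the same library, shown as a percent and tested as a log2 ratio, which needs no scale between libraries. It is not the fraction of unspliced molecules, since the gene region may include the intron, and 7 of the 8 introns are shorter than the read of 151 bases. In the Dib1 strain the ratio rose in 6 of the 8 genes at 4 h, where 87.6% of the 250 hosts tested rose, and in 6 at 8 h, where 92% rose. UBC4 and UBC5 did not pass at either time, but with the replicate block, in libraries that pair, both passed at 8 h (adjusted p = 0.012 and 0.039), for 8 of 8. In the Snu114 strain 0 of 8 changed at 4 h, where 16.9% of 249 hosts fell and none rose, and 5 rose at 8 h (UBC8, UBC9, UBC13, RUB1 and DCN1), where 84.7% rose. The count of 0 is limma's, with 3 members at an unadjusted p under 0.05 (UBC8, UBC9 and DCN1, all lower), and edgeR on recovered reads gave 0. With the replicate block, in libraries that pair, 2 of 8 fell (UBC8, adjusted p = 0.015, and DCN1, adjusted p = 0.031). From 4 h to 8 h in glucose the ratio rose in 5 of 8 in the Dib1 strain (all but UBC4, UBC12 and DCN1; 70.8% of hosts) and in 7 of 8 in the Snu114 strain (all but UBC4; 88% of hosts). Without the block, each share of the 8 genes that rose lay below that of all hosts, the 7 of 8 only just. All host shares given here are from the fit without the block. The share of hosts called with the block was not computed, so the block counts cannot be set against the other hosts.

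The sizes of the changes also sat low among hosts. At 4 h in the Dib1 strain the median log2 change was 0.92 over the 8 genes and 1.66 over all hosts tested, and at 8 h it was 1.71 and 2.58. In the Snu114 strain the medians were -0.27 and -0.34 at 4 h and 0.65 and 1.57 at 8 h. RUB1 alone of the 8 was above the host median in all 4 of these comparisons. UBC4, UBC5, UBC8, UBC9, UBC12 and UBC13 were below it at 4 h and at 8 h in the Dib1 strain and at 8 h in the Snu114 strain. These medians are a description and no test sets the 8 genes against the other hosts.

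**Figure D2:**
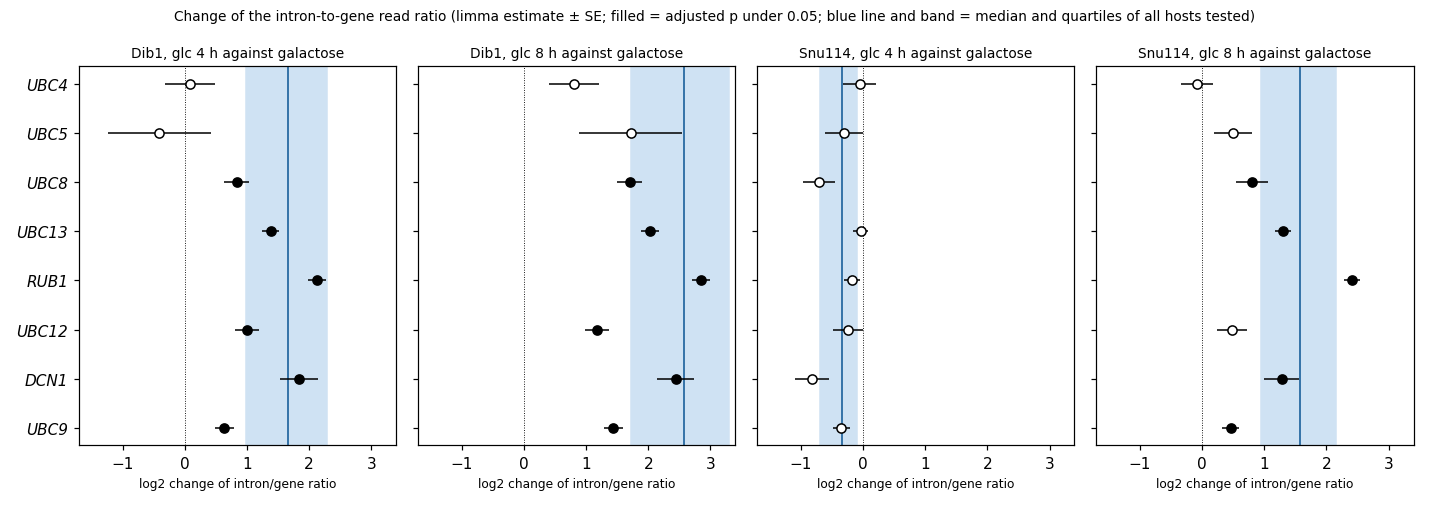
Change of the log2 intron-to-gene read ratio against galactose for each of the 8 genes (limma estimate with its SE as the bar, filled points for adjusted p under 0.05), with the median of all hosts tested as a blue line and their quartiles as a blue band. RUB1 is the rightmost point in 3 of the 4 panels (2.13, 2.85 and 2.41), UBC4 and UBC5 are never filled, and no point is filled for the Snu114 strain at 4 h.

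RUB1, the modifier itself, showed the largest rise of the 8 genes in each of the 3 comparisons against galactose in which any rose. RUB1 intron reads in the Dib1 strain were 8.21%, 9.08% and 10.7% of its gene reads in galactose, 41.0%, 37.7% and 43.7% at 4 h and 69.7%, 61.6% and 70.9% at 8 h, given in the order of replicates 1, 2 and 3. The Snu114 libraries held RUB1 intron reads at 8.26%, 7.76% and 8.88% in galactose, 7.27%, 7.42% and 7.40% at 4 h and 44.3%, 44.6% and 43.8% at 8 h. The 3 Dib1 groups do not overlap and climb from galactose to 4 h to 8 h, while in the Snu114 strain the 4 h libraries lie just under the galactose ones and only the 8 h libraries are high. The log2 ratio rose by 2.13 ± 0.14 (adjusted p = 8.6e-07) and 2.85 ± 0.14 (adjusted p = 3.6e-08) in the Dib1 strain, and by 2.41 ± 0.13 (adjusted p = 6.9e-07) at 8 h in the Snu114 strain. The Snu114 estimate at 4 h was -0.17 ± 0.13 (adjusted p = 0.4). The RUB1 ratio also rose from 4 h to 8 h, by 0.72 ± 0.14 (adjusted p = 0.002) in the Dib1 strain and by 2.58 ± 0.13 (adjusted p = 2.2e-07) in the Snu114 strain. Divided by intron length and by exon length, intron reads of RUB1 came to 2.27 times its gene reads in the highest library. The read of 151 bases is longer than this intron of 73 bases, so the value does not measure an excess of intron. It was not computed for the other hosts.

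RUB1 gene reads did not pass in any comparison. Their level was 2222, 2587 and 2167 normalised counts in galactose, 2003, 2416 and 2116 at 4 h and 2649, 2735 and 2512 at 8 h for Dib1 libraries. Snu114 libraries had 2252, 2686 and 2043 in galactose, 2197, 2722 and 2369 at 4 h and 2232, 2483 and 2018 at 8 h. The glucose groups overlap galactose in both strains. On the log2 scale the difference from galactose at 8 h was 0.18 ± 0.11 (adjusted p = 0.28) in the Dib1 strain and -0.05 ± 0.14 (adjusted p = 0.89) in the Snu114 strain. At 4 h the same differences were -0.09 ± 0.11 (adjusted p = 0.61) and 0.07 ± 0.14 (adjusted p = 0.81).

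UBC12, the E2 for Rub1, began high and gained less. Its intron reads were 21.8%, 19.3% and 25.9% of gene reads in galactose, 56.2%, 35.8% and 43.9% at 4 h and 48.7%, 45.9% and 56.3% at 8 h for the Dib1 strain. The glucose libraries all lie above the galactose ones, and the 4 h and 8 h libraries overlap. The log2 ratio rose by 1.00 ± 0.19 (adjusted p = 0.00048) and 1.17 ± 0.19 (adjusted p = 0.00012), and the change from 4 h to 8 h was 0.17 ± 0.19 (adjusted p = 0.42). UBC12 in the Snu114 libraries was at 21.3%, 18.7% and 27.2% in galactose, 21.5%, 14.3% and 21.6% at 4 h and 25%, 28.2% and 41.9% at 8 h. The galactose and 8 h groups overlap there, and the estimate at 8 h was 0.48 ± 0.24 (adjusted p = 0.087), passing without 8 h replicate 1 (0.64, adjusted p = 0.046). UBC12 rose from 4 h to 8 h in that strain by 0.72 ± 0.24 (adjusted p = 0.017), a call lost without 4 h replicate 2 (adjusted p = 0.075) or without 8 h replicate 3 (adjusted p = 0.054).

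UBC12 gene reads were 954, 999.96 and 1040.2 normalised counts in galactose, 1202, 946 and 938 at 4 h and 883, 808 and 1026 at 8 h for Dib1 libraries. Snu114 libraries had 842, 788 and 994 in galactose, 733, 704 and 896 at 4 h and 628, 628 and 786 at 8 h. The Snu114 libraries at 8 h all lie below galactose, and the Dib1 groups overlap. No comparison passed, and the nearest was the Snu114 strain at 8 h, at -0.36 ± 0.15 (adjusted p = 0.19).

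DCN1, whose product assists the transfer of Rub1, had few intron reads, 7 to 242 in a library, and so the widest relative counting error after UBC5. They made up 2.38%, 1.80% and 3.98% of gene reads in galactose, 11.3%, 6.94% and 10.3% at 4 h and 13.4%, 13.1% and 16.5% at 8 h for the Dib1 strain. The 3 groups do not overlap. The log2 ratio rose by 1.84 ± 0.30 (adjusted p = 0.00018) and 2.44 ± 0.30 (adjusted p = 1.4e-05). The DCN1 difference between 8 h and 4 h was 0.60 ± 0.30 (adjusted p = 0.094), passing without 4 h replicate 1 (0.74, adjusted p = 0.049). The Snu114 values of DCN1 were 3.504%, 2.66% and 2.22% in galactose, 1.62%, 2.06% and 1.02% at 4 h and 6.49%, 7.45% and 6.30% at 8 h. The 4 h libraries lie below and the 8 h libraries above the galactose range. The rise at 8 h was 1.28 ± 0.28 (adjusted p = 0.0015). At 4 h the estimate was -0.82 ± 0.28 (adjusted p = 0.071), and with the replicate number as a block its adjusted p was 0.031.

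DCN1 gene reads fell in the Dib1 strain at 4 h. They were 911, 839.6 and 909 normalised counts in galactose, 564, 617 and 626 at 4 h and 725, 659 and 749.6 at 8 h. Both glucose groups lie below galactose. The level fell by 0.56 ± 0.12 (adjusted p = 0.013) on the log2 scale at 4 h, a call lost without galactose replicate 1 (adjusted p = 0.054), while 8 h gave -0.32 ± 0.12 (adjusted p = 0.072), or an adjusted p of 0.046 with the replicate block. Snu114 libraries had 741, 846 and 810.1 normalised counts of DCN1 in galactose, 619, 697 and 732 at 4 h and 759.5, 699 and 764 at 8 h. The 4 h libraries lie below galactose there and the 8 h libraries overlap it, with log2 differences of -0.23 ± 0.12 (adjusted p = 0.26) and -0.11 ± 0.12 (adjusted p = 0.66).

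**Figure D3:**
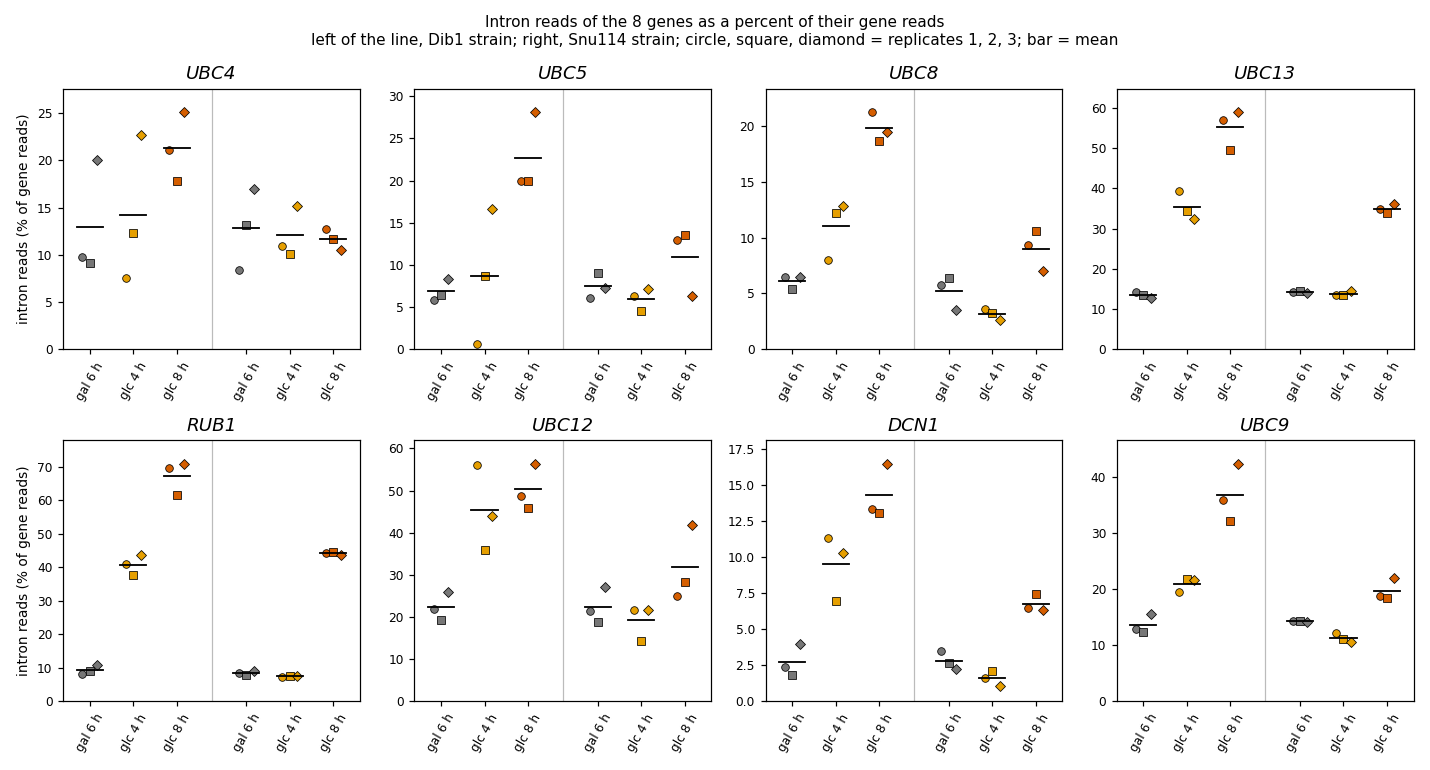
Intron reads as a percent of gene reads (y axis, from 0, scale differs by panel) for each gene, with the Dib1 strain left and the Snu114 strain right of the grey line, grey for galactose, orange for 4 h and red for 8 h in glucose, 1 symbol for each library and a bar for the mean of 3. RUB1 goes from 8.21% to 10.7% in galactose to 61.6% to 70.9% at 8 h in the Dib1 strain, and the diamonds (replicate 3) of UBC4 stand above the other replicates in 5 of the 6 groups.

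UBC13, the E2 that works with Mms2, had closely spaced replicates. Its intron reads were 14.3%, 13.6% and 12.7% of gene reads in galactose, 39.3%, 34.3% and 32.4% at 4 h and 57.1%, 49.6% and 59.0% at 8 h for the Dib1 strain. UBC13 in the Snu114 libraries was at 14.1%, 14.4% and 14.0% in galactose, 13.4%, 13.5% and 14.5% at 4 h and 35.0%, 33.9% and 36.0% at 8 h. The Dib1 groups do not overlap, and in the Snu114 strain the 8 h libraries alone stand out. The log2 ratio rose by 1.38 ± 0.14 (adjusted p = 5.8e-06) and 2.03 ± 0.14 (adjusted p = 1.7e-07) in the Dib1 strain and by 1.30 ± 0.12 (adjusted p = 8.2e-06) at 8 h in the Snu114 strain. The Snu114 estimate at 4 h was -0.04 ± 0.12 (adjusted p = 0.87). UBC13 rose from 4 h to 8 h by 0.64 ± 0.14 (adjusted p = 0.0027) in the Dib1 strain and by 1.34 ± 0.12 (adjusted p = 2.6e-06) in the Snu114 strain.

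UBC13 gene reads did not pass the test in any comparison. They ran from 3514 to 5621 normalised counts over the 18 libraries, and the estimates at 8 h were 0.30 ± 0.18 (adjusted p = 0.24) in the Dib1 strain and -0.03 ± 0.18 (adjusted p = 0.96) in the Snu114 strain. MMS2, for its E2-variant partner, also has an intron, and its gene reads fell in 3 of 4 glucose groups. MMS2 gene reads were 2851, 2919.7 and 3238 normalised counts in galactose, 1121, 1569 and 1612 at 4 h and 1077, 944 and 1261 at 8 h for the Dib1 strain. Snu114 libraries had 2692, 3098 and 3503 in galactose, 2458, 2739.9 and 3522 at 4 h and 1624, 1849.7 and 1647 at 8 h. The Snu114 libraries at 4 h overlap galactose, and the other glucose groups lie below it. MMS2 gene reads fell by 1.08 ± 0.16 (adjusted p = 0.0023) and 1.46 ± 0.16 (adjusted p = 0.00018) in the Dib1 strain and by 0.85 ± 0.15 (adjusted p = 0.0086) at 8 h in the Snu114 strain, where the 4 h difference was -0.10 ± 0.15 (adjusted p = 0.73). The MMS2 intron ratio rose by 4.00 ± 0.21 (adjusted p = 3.7e-08) and 2.11 ± 0.30 (adjusted p = 9.4e-05) at 8 h in the Dib1 and the Snu114 strain.

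UBC8, for the E2 of the GID ligase, rose in intron ratio in both strains at 8 h. Its intron reads were 6.42%, 5.36% and 6.47% of gene reads in galactose, 8.00%, 12.2% and 12.9% at 4 h and 21.2%, 18.7% and 19.5% at 8 h for the Dib1 strain. The Snu114 values of UBC8 were 5.72%, 6.36% and 3.54% in galactose, 3.56%, 3.20% and 2.57% at 4 h and 9.34%, 10.6% and 6.96% at 8 h. The Dib1 groups do not overlap, and the Snu114 libraries at 8 h lie above both other groups. The log2 ratio rose by 0.83 ± 0.20 (adjusted p = 0.0029) and 1.70 ± 0.20 (adjusted p = 1.2e-05) in the Dib1 strain. The Snu114 rise was 0.80 ± 0.26 (adjusted p = 0.015) at 8 h, a call lost without galactose replicate 3 (0.55, adjusted p = 0.059) or 8 h replicate 2 (adjusted p = 0.06). At 4 h in the Snu114 strain the estimate was -0.70 ± 0.26 (adjusted p = 0.085), and its adjusted p was 0.015 with the replicate block and 0.03 without galactose replicate 3 (-0.96). UBC8 rose from 4 h to 8 h by 0.87 ± 0.20 (adjusted p = 0.0041) in the Dib1 strain and by 1.51 ± 0.26 (adjusted p = 0.00026) in the Snu114 strain.

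UBC8 gene reads were 2124, 2166 and 2504 normalised counts in galactose, 1934, 1525 and 1111 at 4 h and 1888, 1658 and 1759 at 8 h for Dib1 libraries. Snu114 libraries had 1759, 2199 and 2480.4 in galactose, 1359.7, 1631 and 1832 at 4 h and 1605, 1711 and 2039 at 8 h. Both Dib1 glucose groups lie below galactose, and the Snu114 groups overlap. At 4 h the log2 difference was -0.60 ± 0.18 (adjusted p = 0.054) in the Dib1 strain and -0.41 ± 0.17 (adjusted p = 0.14) in the Snu114 strain, with adjusted p-values of 0.049 and 0.012 with the replicate block. Without 4 h replicate 1 the Dib1 estimate was -0.79 (adjusted p = 0.0083). VID24, a subunit that brings targets to the GID ligase, fell in both strains at both times, by 0.77 ± 0.19 (adjusted p = 0.023) and 0.74 ± 0.19 (adjusted p = 0.014) in the Dib1 strain and by 1.08 ± 0.17 (adjusted p = 0.0041) and 0.83 ± 0.17 (adjusted p = 0.015) in the Snu114 strain. FYV10, a catalytic-core subunit of that ligase, did not pass, with -0.37 ± 0.20 (adjusted p = 0.24) at 4 h in the Dib1 strain. Other GID ligase genes went both ways. VID28 rose at 8 h by 0.71 ± 0.12 (adjusted p = 0.0021) in the Dib1 and 0.54 ± 0.13 (adjusted p = 0.031) in the Snu114 strain. VID30 rose by 0.42 ± 0.11 (adjusted p = 0.042) at 4 h in the Snu114 strain. GID8 fell by 0.39 ± 0.11 (adjusted p = 0.039) at 4 h in the Dib1 strain.

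UBC9, the SUMO E2, changed both in its intron ratio and in its gene reads. Intron reads were 12.8%, 12.3% and 15.5% of gene reads in galactose, 19.5%, 21.7% and 21.5% at 4 h and 35.9%, 32.1% and 42.3% at 8 h for the Dib1 strain. The Snu114 values of UBC9 were 14.4%, 14.3% and 14.1% in galactose, 12.2%, 11.01% and 10.6% at 4 h and 18.7%, 18.4% and 21.95% at 8 h. No pair of groups within a strain overlaps, with the 4 h libraries of the Snu114 strain below galactose. The log2 ratio rose by 0.63 ± 0.15 (adjusted p = 0.0027) and 1.44 ± 0.15 (adjusted p = 4.6e-06) in the Dib1 strain and by 0.46 ± 0.14 (adjusted p = 0.0094) at 8 h in the Snu114 strain. A ratio moves with gene reads as well as with intron reads. In all 3 of these comparisons the gene-read estimate of UBC9 was negative. Its intron reads on the scale of the gene table did not pass as a rise in any of them. The Snu114 estimate at 4 h was -0.35 ± 0.14 (adjusted p = 0.1). UBC9 rose from 4 h to 8 h by 0.81 ± 0.15 (adjusted p = 0.0015) in the Dib1 strain and by 0.81 ± 0.14 (adjusted p = 0.00022) in the Snu114 strain.

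UBC9 gene reads were 2358, 2413 and 2794 normalised counts in galactose, 1088, 1756 and 2191 at 4 h and 1143.2, 1053 and 1414 at 8 h for the Dib1 strain. Snu114 libraries had 1989, 2206 and 2488 in galactose, 2479, 2594 and 2903 at 4 h and 1440.0, 1458 and 1184 at 8 h. The 8 h libraries are the low ones in the Snu114 strain, and in the Dib1 strain replicate 1 at 4 h is as low as the 8 h libraries. At 8 h the level fell on the log2 scale by 1.07 ± 0.23 (adjusted p = 0.0069) for Dib1 and by 0.71 ± 0.13 (adjusted p = 0.0091) for Snu114. At 4 h the Dib1 estimate was -0.64 ± 0.23 (adjusted p = 0.092), with an adjusted p of 0.034 both with the replicate block and without 4 h replicate 3 (-0.86), and the Snu114 estimate was 0.26 ± 0.13 (adjusted p = 0.24). Between the glucose times it fell by 0.97 ± 0.13 (adjusted p = 0.012) in the Snu114 strain, a call lost without 4 h replicate 1 (adjusted p = 0.052), 4 h replicate 2 (adjusted p = 0.06) or 8 h replicate 2 (adjusted p = 0.065). The Dib1 strain gave -0.43 ± 0.23 (adjusted p = 0.24), and -0.72 (adjusted p = 0.014) without 4 h replicate 1. SMT3, the yeast SUMO gene, and the SUMO E1 genes AOS1 and UBA2 did not pass at 8 h in either strain, with 0.01 ± 0.15 (adjusted p = 0.98), 0.18 ± 0.15 (adjusted p = 0.44) and -0.22 ± 0.10 (adjusted p = 0.11) in the Dib1 strain.

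**Figure D4:**
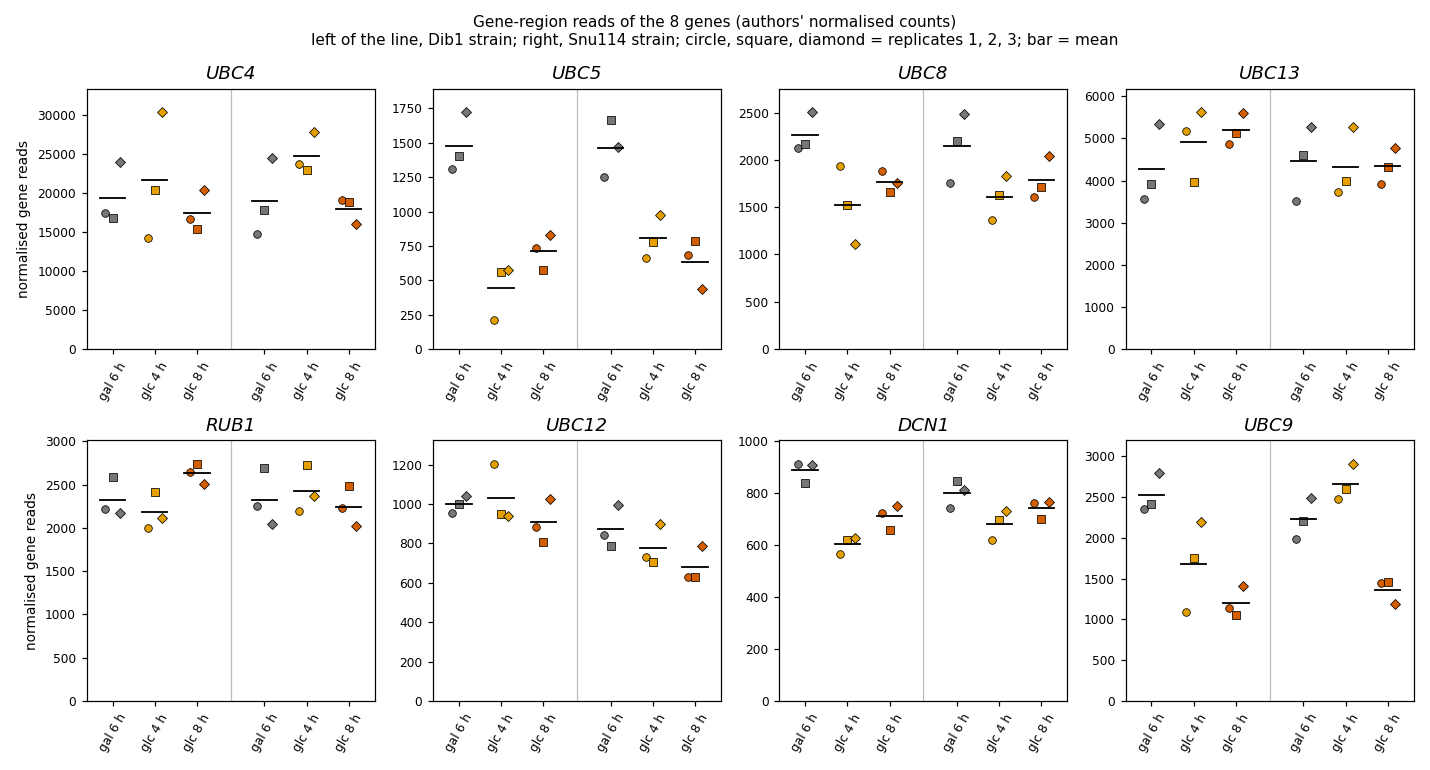
Normalised gene reads (y axis, from 0, scale differs by panel) for each of the 8 genes by library, laid out and coloured as in the plot of intron percents. UBC5 lies between 1251 and 1722 in galactose and between 210 and 976 in glucose over both strains, UBC9 is low at 8 h in both strains, and RUB1 stays between 2003 and 2735.

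UBC4 and UBC5 encode interchangeable E2s, of which UBC4 serves mainly in growing cells and UBC5 in stationary phase. Their coding exons are 447 bases each and identical at 345 of them (77.2%), with a longest identical run of 14 bases, and their introns share no run longer than 9 bases. Neither passed in intron ratio against galactose. UBC4 intron reads were 9.76%, 9.10% and 20.044% of gene reads in galactose, 7.51%, 12.3% and 22.7% at 4 h and 21.1%, 17.8% and 25.1% at 8 h for the Dib1 strain. The Snu114 values of UBC4 were 8.39%, 13.1% and 16.995% in galactose, 10.97%, 10.03% and 15.2% at 4 h and 12.7%, 11.7% and 10.5% at 8 h. All groups overlap within a strain, and replicate 3 is the highest of its group in every group but the Snu114 strain at 8 h, where it is the lowest. The log2 ratio estimates were 0.08 ± 0.40 (adjusted p = 0.86) and 0.80 ± 0.40 (adjusted p = 0.08) in the Dib1 strain and -0.06 ± 0.26 (adjusted p = 0.91) and -0.08 ± 0.26 (adjusted p = 0.77) in the Snu114 strain. With the replicate block the Dib1 estimate at 8 h had an adjusted p of 0.012, and without galactose replicate 3 it was 1.16 (adjusted p = 0.019). The Dib1 difference of UBC4 between 8 h and 4 h was 0.72 ± 0.40 (adjusted p = 0.13), and 1.13 (adjusted p = 0.019) without 4 h replicate 3.

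UBC4 gene reads were the highest of the 8 genes, at 17451, 16842 and 23945 normalised counts in galactose, 14230.0, 20398 and 30364 at 4 h and 16721, 15346 and 20400.0 at 8 h for Dib1 libraries. Snu114 libraries had 14702, 17892 and 24501 in galactose, 23687, 22991 and 27776 at 4 h and 19094, 18898 and 16037 at 8 h. Replicate 3 is the highest in 5 of these 6 groups too. UBC4 gene reads did not pass in any comparison, with estimates from -0.14 ± 0.27 (8 h, Dib1 strain) to 0.41 ± 0.21 (4 h, Snu114 strain) against galactose. UBC4 intron reads numbered 836 to 8829 in a library. What set replicate 3 of UBC4 apart was not tested.

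UBC5 gene reads fell in glucose in both strains. They were 1309, 1405 and 1722 normalised counts in galactose, 209.7, 558 and 571 at 4 h and 736, 578 and 829.5 at 8 h for the Dib1 strain. Snu114 libraries had 1252, 1663 and 1471 in galactose, 663, 776 and 976 at 4 h and 683, 784 and 437 at 8 h. Every glucose library lies below every galactose library in both strains, and replicate 1 at 4 h in the Dib1 strain is the lowest of all. On the log2 scale the level fell by 1.85 ± 0.35 (adjusted p = 0.0068) and 1.05 ± 0.35 (adjusted p = 0.045) in the Dib1 strain and by 0.87 ± 0.23 (adjusted p = 0.04) and 1.24 ± 0.23 (adjusted p = 0.0099) in the Snu114 strain. The Dib1 call at 8 h was lost without any 1 of its 6 libraries (adjusted p = 0.066 to 0.15). The Snu114 call at 4 h was lost without any 1 of 5 of its 6 libraries (adjusted p = 0.068 to 0.14), 4 h replicate 3 being the exception.

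UBC5 intron reads were 5.80%, 6.45% and 8.32% of gene reads in galactose, 0.610%, 8.71% and 16.7% at 4 h and 19.9%, 20% and 28.1% at 8 h for the Dib1 strain. The low value at 4 h is 1 intron read, with an exact 95% Poisson interval of 0.0253 to 5.57 reads that covers counting error only. Estimates were -0.41 ± 0.83 (adjusted p = 0.65) at 4 h and 1.72 ± 0.83 (adjusted p = 0.07) at 8 h, where the groups do not overlap, and the adjusted p there was 0.039 with the replicate block and 0.0032 by edgeR. Without that 4 h library the 4 h estimate turned to 0.83 (adjusted p = 0.016). The UBC5 ratio rose from 4 h to 8 h by 2.13 ± 0.83 (adjusted p = 0.04), the largest estimate of the 250 hosts there, but 0.89 (adjusted p = 0.016) without the 4 h library of 1 intron read, beside a host median of 0.87, and 1.22 (adjusted p = 0.04) by edgeR. That call was lost without any 1 of the 3 libraries at 8 h (adjusted p = 0.071 to 0.1) and without the filter on low reads (adjusted p = 0.054). The Snu114 values of UBC5 were 6.05%, 9.07% and 7.20% in galactose, 6.33%, 4.54% and 7.12% at 4 h and 12.9%, 13.6% and 6.28% at 8 h. The 8 h group overlaps both others through its replicate 3, and the 8 h estimate was 0.50 ± 0.31 (adjusted p = 0.15), or 0.85 (adjusted p = 0.0053) without that replicate. The Snu114 rise from 4 h to 8 h was 0.81 ± 0.31 (adjusted p = 0.028), a call lost without 4 h replicate 1 or 2 or 8 h replicate 1 or 2 (adjusted p = 0.051 to 0.11).

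Across the 8 genes, gene reads fell in 2 (UBC5 and DCN1) at 4 h and in 2 (UBC5 and UBC9) at 8 h in the Dib1 strain, where 15.2% and 28.9% of 6447 genes changed in either direction. In the Snu114 strain they fell in 1 (UBC5) at 4 h and in 2 (UBC5 and UBC9) at 8 h, where 11.5% and 8.98% of genes changed. None rose in these 4 comparisons. With the replicate block, in libraries that pair, 4 fell at 4 h and 3 at 8 h in the Dib1 strain, and 2 at 4 h in the Snu114 strain. The shares of all genes given here are without the block, and those with it were not computed. From 4 h to 8 h none passed in the Dib1 strain (14.4% of genes did, limma; 2 of the 8 at an unadjusted p under 0.05, and 0 by edgeR and by DESeq2), and UBC9 passed in the Snu114 strain (1.91% of genes). Normalised counts are relative to the rest of a library, so a change in the total RNA of a cell is not seen in them.

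Per kilobase of exon in galactose (Dib1 strain, normalised counts per kb, mean ± SD, n = 3) UBC4 stood highest at 43428 ± 8808. RUB1 (9937 ± 974) and UBC13 (9248 ± 2030.2) followed and overlap each other. UBC9 (5320.3 ± 501) came next, then UBC8 (3447 ± 316) and UBC5 (3308 ± 483), which also overlap, and UBC12 (1760.3 ± 75.9) and DCN1 (1094 ± 50.1) stood lowest. At 8 h in glucose UBC9 (2539 ± 396) and UBC8 (2692 ± 175) overlap, as do UBC5 (1599 ± 284) and UBC12 (1598 ± 195), while UBC4 (39125 ± 5846) is still highest and DCN1 (878 ± 58.0) lowest. In the Snu114 strain in galactose the order is the same but for UBC5 (3270.1 ± 461) and UBC8 (3266 ± 554), which overlap, and at 8 h UBC9 (2871 ± 324) and UBC8 (2717 ± 344) overlap, as do UBC5 (1419 ± 398) and UBC12 (1201 ± 161).

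As a level (intron reads on the scale of the gene table, log2 of the normalised value + 1) introns of UBC12, UBC13, RUB1 and DCN1 rose at 4 h in the Dib1 strain (76% of 254 hosts rose). At 8 h in that strain those of UBC8, UBC12, UBC13, RUB1 and DCN1 rose (83.9% of hosts). On the authors' own intron-table scale RUB1 also passed at both times, UBC13 was near 0 (0.04 and 0.09), and UBC8, UBC12 and DCN1 turned negative. RUB1 intron levels were 183, 235 and 233 in galactose and 1845, 1686 and 1779.7 at 8 h, groups far apart, and rose by 3.03 ± 0.19 (adjusted p = 2.5e-08). UBC9 intron levels were 302, 297 and 432 in galactose and 411, 338 and 598 at 8 h, overlapping groups, with a difference of 0.36 ± 0.32 (adjusted p = 0.3). At 4 h in the Dib1 strain the UBC9 level differed by -0.01 ± 0.32 (adjusted p = 0.99) and the UBC8 level by 0.23 ± 0.23 (adjusted p = 0.37). The UBC9 level at 8 h in the Snu114 strain gave -0.25 ± 0.18 (adjusted p = 0.22), with all 8 h libraries below galactose. In each of these comparisons the intron ratio of the gene rose. At 8 h in the Snu114 strain UBC13, RUB1 and DCN1 rose (73.1% of 253 hosts), and on the authors' scale RUB1 alone of the 3 kept that direction. UBC8 fell by 1.11 ± 0.25 (adjusted p = 0.033) at 4 h (1.98% of hosts fell), with intron levels of 101, 139.9 and 87.9 in galactose and 48.4, 52.1 and 47.1 at 4 h, a call lost without any 1 of 5 of the 6 libraries (adjusted p = 0.094 to 0.2), galactose replicate 3 being the exception. With the replicate block, the falls of UBC5 at 4 h in the Dib1 strain (-2.18, adjusted p = 0.035) and of DCN1 at 4 h in the Snu114 strain (-1.02, adjusted p = 0.041) also passed. Without the block limma gave -2.18 ± 1.02 (adjusted p = 0.065) and -1.02 ± 0.34 (adjusted p = 0.11). The UBC5 estimate ran from -3.24 to -0.54 over single libraries left out, and its 4 h replicate 1 held 1 intron read.

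The authors' intron tables carry size factors of their own, which centre the introns of each library on each other. On that scale the median change over all hosts at 8 h was 0.08 instead of 2.30 in the Dib1 strain and 0.09 instead of 1.39 in the Snu114 strain. RUB1 rose on both scales. On the authors' scale UBC4, UBC8, UBC9 and UBC12 fell at 8 h in the Dib1 strain, 4 lower and 1 higher call where the gene scale gave 0 lower and 5 higher. In the Snu114 strain 5 were lower and 1 was higher at 8 h, against 0 and 3.

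**Figure D5:**
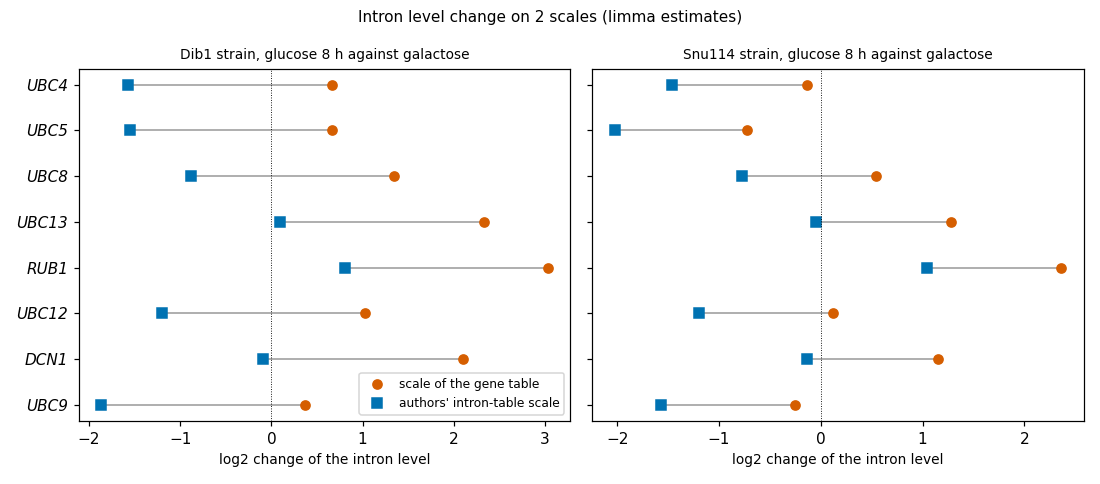
Log2 change of the intron level at 8 h against galactose on the scale of the gene table (orange circles) and on the authors' own intron-table scale (blue squares) for each gene and strain, as limma estimates. Every gene shifts left by nearly the same amount within a strain, and RUB1 is the only gene with both points clearly right of 0 in both strains.

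In galactose none of the 8 intron ratios passed between the strains (limma; 0 at an unadjusted p under 0.05, and 0 by edgeR), where 3.2% of 250 hosts did, and the estimates ran from -0.26 (UBC8) to 0.11 (UBC5), Snu114 minus Dib1. The change against galactose was smaller in the Snu114 strain than in the Dib1 strain for 6 of 8 at 4 h, all but UBC4 and UBC5, where 85.6% of hosts were lower by the interaction test. At 8 h it was smaller for 5 of 8 (UBC8, UBC9, UBC13, RUB1 and DCN1), where 60.4% were lower. RUB1 had a difference of -2.30 ± 0.18 (adjusted p = 1.6e-08) at 4 h and -0.44 ± 0.18 (adjusted p = 0.043) at 8 h. DCN1 had -2.66 ± 0.42 (adjusted p = 1.9e-05) and -1.16 ± 0.42 (adjusted p = 0.028), and UBC9 had -0.98 ± 0.20 (adjusted p = 0.00019) and -0.98 ± 0.20 (adjusted p = 0.00078). At 8 h the calls other than UBC9 were lost when replicate 1, or replicate 2, was left out of every group, which left 1 of 8 each time, and RUB1 was also lost with edgeR (adjusted p = 0.053). In gene reads none of the 8 differed between the strains at 4 h (0.494% of 6476 genes did) or at 8 h (6.44%), by limma and by edgeR, with 3 of 8 and 0 of 8 at an unadjusted p under 0.05.

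The hosts whose 4 intron-ratio changes against galactose lay nearest to those of each gene were found by the root mean square difference in log2 units over 241 other hosts. The changes share galactose libraries within a strain, and the likeness is a description. DCN1 was nearest to PCC1 (0.07) and UBC13 to HOP2 (0.09) and DBP2 (0.10). UBC4 was nearest to DTD1 (0.11), UBC12 and UBC9 each to BOS1 (0.13 and 0.14), UBC5 to PMI40 (0.19), RUB1 to GLC7 (0.20) and YHR097C (0.21), and UBC8 to RPL26B (0.21).

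Genes of the same pathways outside the set of 8 were followed at the gene level. Of 51 such genes (ubiquitin and its E1, the other E2s, the Rub1 and SUMO pathways, the GID ligase and a set of ubiquitin ligases), 6 rose and 3 fell at 4 h and 18 rose and 7 fell at 8 h in the Dib1 strain, where 15.2% and 28.9% of all genes changed. In the Snu114 strain 3 rose and 3 fell at 4 h and 6 rose and 2 fell at 8 h, where 11.5% and 8.98% of all genes changed. The 4 h counts are near those shares. Their median log2 change at 8 h was 0.30 in the Dib1 strain and 0.16 in the Snu114 strain, against 0.01 and 0.00 over all genes. In the Rub1 pathway CDC53, the cullin that carries Rub1, rose by 0.64 ± 0.17 (adjusted p = 0.03) and 1.03 ± 0.17 (adjusted p = 0.0015) in the Dib1 strain and by 0.57 ± 0.14 (adjusted p = 0.035) at 8 h in the Snu114 strain. YUH1, which trims the Rub1 precursor, fell by 1.12 ± 0.15 (adjusted p = 0.00052) at 8 h for the Dib1 strain. The subunits of the Rub1 E1, ULA1 and UBA3, and RRI1, the subunit of the COP9 signalosome that removes Rub1, did not pass at 8 h, with 0.15 ± 0.11 (adjusted p = 0.37), -0.49 ± 0.19 (adjusted p = 0.081) and -0.13 ± 0.23 (adjusted p = 0.74) in the Dib1 strain.

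UBA1, the ubiquitin E1, rose by 0.42 ± 0.12 (adjusted p = 0.038) and 0.91 ± 0.12 (adjusted p = 0.00039) in the Dib1 strain, and its Snu114 estimate at 8 h was 0.41 ± 0.12 (adjusted p = 0.066). The ligases UBR1, of the N-degron pathway, and SSM4, of the endoplasmic reticulum, rose by 1.46 ± 0.13 (adjusted p = 5.7e-05) and 1.43 ± 0.13 (adjusted p = 5.4e-05) at 8 h for the Dib1 strain. Of the 14 ligases 7 rose and 1 fell there, where 884 of 6447 genes rose and 976 fell. UBI4, the polyubiquitin gene, rose by 0.83 ± 0.21 (adjusted p = 0.014) at 8 h for the Dib1 strain and fell by 1.22 ± 0.30 (adjusted p = 0.03) at 4 h in the Snu114 strain. Of the 8 SUMO pathway genes other than UBC9, 4 rose and 0 fell at 8 h in the Dib1 strain, beside the same 884 and 976 of all genes, among them ULP2, a SUMO protease gene, by 0.69 ± 0.12 (adjusted p = 0.0023).

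Another 5 of the intron hosts are genes of the ubiquitin system. MMS2, RPL40A, RPL40B, PRE3 and SUS1 all rose in intron ratio at 4 h and at 8 h in the Dib1 strain and at 8 h in the Snu114 strain, 5 of 5 each time, where 87.6%, 92% and 84.7% of all hosts rose, with median log2 changes of 2.22, 3.13 and 1.97. RPL40A, a gene for a ubiquitin fused to a ribosomal protein, rose by 3.93 ± 0.26 (adjusted p = 1.3e-07) at 8 h for the Dib1 strain. PRE3, a proteasome subunit gene, rose by 2.15 ± 0.22 (adjusted p = 1.4e-05) at 8 h in the Snu114 strain. No test sets these 5 against the 8.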

How the data were processed

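The authors' deposited tables hold, for genes and for introns of each strain, a normalised signal per library, the read count divided by 1 size factor per library, beside the authors' log2 fold changes and adjusted p-values, which were not used. Per the submitters' processing notes, Trimmomatic, STAR, HTSeq and DESeq2 were used with sacCer3, and versions and the strand setting are not given in the sources used here. Dividing each library's values by its smallest step gave whole numbers throughout (tolerance 0.001), and these recovered read counts were used. No replicate pair agreed within sampling noise (chi-square per degree of freedom 12.7 to 349). The highest values were for pairs that hold 1 of 2 libraries. Pairs with 4 h replicate 1 of the Dib1 strain gave 349 and 285, against 87.3 for the other pair. Pairs with 8 h replicate 3 of the Snu114 strain gave 296 and 272, against 13.2. These 2 libraries thus stood apart from their groups over all genes, and what set them apart was not tested.

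Log2 values were tested with limma 3.58.1 (limma-trend, R 4.3.3), in 1 fit of 9 libraries per strain and 1 of all 18 for strain differences. The ratio was log2 of intron over gene reads with 0.5 added to each, for hosts with means of at least 5 intron and 20 gene reads, and levels had 1 added. p-values were adjusted by Benjamini-Hochberg over all features and called at 0.05. Alternatives were edgeR 4.0.16, DESeq2 1.42.0, other added values (2 or 5), filters, the authors' intron scale, leaving out each library, and a replicate block. Same-numbered libraries deviated together (correlation over 0.1 in all 3 pairs, 0.306 to 0.637) in Dib1 4 h, Dib1 8 h and Snu114 4 h against galactose, so block values stand beside results there. The gene level from 4 h to 8 h in the Dib1 strain also met this rule (0.12 to 0.443), and with the block 0 of the 8 genes passed there. The intron ratio of that comparison did not meet it (-0.032 to 0.528). The tests were also run on simulated counts, drawn independently for each library. That setting lacks the shared deviations of same-numbered libraries, so it is no check on the tests under them. The 8 genes, the pathway lists and the rule for named genes were chosen with earlier results of these data known. Named were the 8 genes, their direct partners, up to 2 list genes with the largest called change per comparison, and each gene's 2 nearest hosts, some of which are left out. Of 6596 gene identifiers, 5895 were found in the R64 annotation, the assembly of sacCer3.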

Additional observations from a re-analysis of the deposited data

Results flagged for a closer look

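The change of the intron ratio against galactose differed between the strains by limma's interaction test for several of the 8 genes, and the values are Snu114 minus Dib1 on the log2 scale. At 4 h the difference was -2.30 ± 0.18 (adjusted p = 1.6e-08) for RUB1 and -2.66 ± 0.42 (adjusted p = 1.9e-05) for DCN1. For the E2 genes at 4 h it was -1.54 ± 0.34 (adjusted p = 0.00047) for UBC8, -1.42 ± 0.17 (adjusted p = 8e-07) for UBC13, -1.24 ± 0.32 (adjusted p = 0.0018) for UBC12 and -0.98 ± 0.20 (adjusted p = 0.00019) for UBC9. By the same test 85.6% of 250 hosts were lower at 4 h, and 60.4% were lower at 8 h. All 3 replicates of the Dib1 strain at 4 h lay above its galactose libraries for each of these 6 genes. The 6 were picked by a test on the same libraries, so this separation adds no support. The share of all hosts so separated was not computed.

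At 8 h the difference was -1.16 ± 0.42 (adjusted p = 0.028) for DCN1, -0.98 ± 0.20 (adjusted p = 0.00078) for UBC9, -0.90 ± 0.34 (adjusted p = 0.032) for UBC8, -0.72 ± 0.17 (adjusted p = 0.0023) for UBC13 and -0.44 ± 0.18 (adjusted p = 0.043) for RUB1. Strain, mating type and LYS2 cannot be told apart in these differences, and the sizes at 8 h are the ones that lose their calls without replicate 1 or replicate 2, UBC9 excepted.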

How the results depend on the processing

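Of the values recomputed under each alternative, 1557 kept their direction and their side of the threshold or were uncalled both times, 45 became called, 45 lost their call and 25 reversed. The 6, 6, 5, 5 and 7 rises in intron ratio and the 6 smaller changes of the Snu114 strain at 4 h stayed within 1.5 times under every alternative run. On the authors' intron-table scale, and with DESeq2 on recovered reads, which uses the same kind of scale, intron levels reversed as follows, in that order. At 4 h in the Dib1 strain they were -1.32 and -1.33 for UBC8, -0.51 and -0.45 for UBC12, and -0.25 and -0.31 for DCN1. At 8 h in the Dib1 strain they were -1.58 and -1.75 for UBC4, -0.88 and -0.89 for UBC8, -1.86 and -1.86 for UBC9, -1.20 and -1.20 for UBC12, and -0.088 and -0.15 for DCN1. At 8 h in the Snu114 strain they were -0.77 and -0.79 for UBC8, -1.20 and -1.18 for UBC12, -0.045 and -0.062 for UBC13, and -0.13 and -0.14 for DCN1. Both scales also moved the count of intron levels called at 8 h in the Snu114 strain from 3 to 6. The reversals follow from the scale, which removes the shift shared by introns. The UBC5 ratio at 4 h in the Dib1 strain turned from -0.41 to 0.83 without 4 h replicate 1, in a range of -1.27 to 0.83 over single libraries left out.

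With the replicate number as a block, counts of called genes moved from 0 to 2 for the intron ratio and from 1 to 2 for the intron level and for the gene level at 4 h in the Snu114 strain, and from 2 to 4 for the gene level at 4 h in the Dib1 strain. Where the numbers were not shown to pair the libraries, the block also called the intron ratios of UBC4 and DCN1 from 4 h to 8 h in the Dib1 strain. It also called UBC12 at 8 h in the Snu114 strain (intron ratio and gene level) and the UBC8 intron level there. In the strain difference of the intron ratio at 8 h it called UBC4 and UBC12. It changed no other call than these and those given beside the results. The share of all features called with the block was not computed. Leaving out 1 library moved the count from 0 to between 0 and 1 for the intron ratio at 4 h in the Snu114 strain, from 1 to between 0 and 1 for the intron level there, from 2 to between 1 and 3 for the gene level at 4 h and to 1 at 8 h in the Dib1 strain, from 0 to between 0 and 1 for the gene level from 4 h to 8 h in the Dib1 strain, and from 1 to between 0 and 1 for the gene level at 4 h and from 4 h to 8 h in the Snu114 strain. Leaving out a replicate number moved the strain difference at 8 h from 5 to between 1 and 5. The cause was not tested for these changes. Depth limits UBC5 and DCN1 most, with 1 to 367 and 7 to 242 intron reads in a library.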
